A study of Mus musculus with 8 samples.

Results

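The proteasome genes described here were the genes whose name in the array annotation starts with Psma, Psmb, Psmc, Psmd, Psme, Psmf or Psmg followed by a digit. The rule found 44 genes with 67 probes, of 18137 genes that passed the filter on dim probes and 41174 probes on the array. Of the 67 probes, 66 passed that filter, and all 44 genes kept at least 1 probe. They were sorted by role into 37 standard members (subunits, activators, assembly chaperones and an inhibitor), 5 members of the immunoproteasome system (Psmb8, Psmb9, Psmb10, Psme1 and Psme2) and 2 others: Psma8, a testis form of an α subunit, and Psmc3ip, a recombination protein that carries a proteasome-like name and is no subunit. No member had a name starting with Psmg. Psmg1, Psmg2 and Psmg3 were on the array under other names and are described below with the genes outside the rule.

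RNA came from the liver of 6-month-old C57BL/6 mice. The knockout mice (KO) carried an albumin promoter-driven Cre and floxed Dicer1 alleles (Albumin-Cre;Dicer1loxP/loxP), which deletes the microRNA-processing enzyme Dicer1 in hepatocytes. Whether the other liver cells kept it was not tested. The wild-type mice (WT) were littermates with the same floxed alleles and no Cre (Dicer1loxP/loxP). Each genotype received 1 intraperitoneal injection, either of N-ethyl-N-nitrosourea (ENU), a DNA-alkylating mutagen, at 120 mg/kg in dimethylsulfoxide, taken 15 days later, or of dimethylsulfoxide alone, for which the day is not given; the volume was 2 ml/kg. Each of the 4 groups had 2 arrays, a and b, which differed by no more than the noise between repeated spots and were counted as 1 RNA sample. How many mice stood behind each RNA sample is not in the labels.

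All values below are levels or differences on the log2 scale. A level is the log2 of a probe's processed signal over the 75th percentile of its array. A difference between a pair of groups sets 1 RNA sample against 1 and has no replicate check. The only test was limma over the 4 RNA samples with a genotype term and a treatment term, which leaves 1 residual degree of freedom; a gene is said to have risen or fallen only where its Benjamini-Hochberg adjusted p over all 18137 genes was under 0.05. Since no group was repeated, its residual is how far the genotype difference changed between the treatments, which limma shrinks toward that of other genes. Its SE and p-values measure only that, and not the spread between repeated samples.

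All 4 ENU arrays lay on 1 slide and all 4 vehicle arrays on another, so ENU and slide cannot be told apart, and KO and WT lay at the same positions on both slides, so genotype cannot be told apart from position either. The signal at the 75th percentile reached 629 to 681 on the KO arrays, against 437 to 443 for WT vehicle and 504 to 524 after ENU in WT, so the choice of scaling bears on every genotype difference. The mice were labelled female, yet each of 4 Y-linked genes had a probe well above background on all 8 arrays, and 3 of 4 Xist probes were above it on none. The labelled sex is thus not borne out by any group. Dicer1 itself was lower in KO, 5.50-fold on vehicle and 2.85-fold after ENU by the probe spanning a splice junction and 1.41-fold and 1.19-fold by the other probe.

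The proteasome degrades proteins tagged with ubiquitin. Its 20S core is a barrel of α and β rings, in which Psmb5, Psmb6 and Psmb7 encode the catalytic β5, β1 and β2 subunits, and its 19S cap recognises, unfolds and feeds in the substrate. In cells exposed to interferon γ, and in many immune cells without it, Psmb8, Psmb9 and Psmb10 (β5i, β1i and β2i) replace the constitutive catalytic subunits in newly assembled cores, and the ring of PA28α and PA28β, encoded by Psme1 and Psme2, caps them; this form yields peptides for MHC class I presentation. The liver makes mostly the constitutive form and switches part of it in inflammation.

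Sequences around the start sites are shown for 4 catalytic subunits of the pairs that moved apart and for Psme1. The latter is the immunoproteasome member with an interferon motif match past its start. All were taken from RefSeq on GRCm38.p6, the transcribed strand, 5′ to 3′. The capitals mark matches to a motif on either strand, and positions count from 1 at the first transcribed base, with -1 before it. The table holds promoters (250 bases before and 50 after the start) for 5 of the 5 immunoproteasome members and 31 of the 37 standard members. The GAS motif TTCNNNGAA, the STAT site of interferon γ signalling, occurred once in Psmb8, at -97 to -89, and in 8.30% of all 32851 promoters. It occurred in 1 of the 5 immunoproteasome members, Psmb8, and in 1 of the 31 standard members, Psmd2, at 5 to 13. The stretch lies at chr17:34197945-34198194, plus strand, before the first base of Psmb8.
Psmb8: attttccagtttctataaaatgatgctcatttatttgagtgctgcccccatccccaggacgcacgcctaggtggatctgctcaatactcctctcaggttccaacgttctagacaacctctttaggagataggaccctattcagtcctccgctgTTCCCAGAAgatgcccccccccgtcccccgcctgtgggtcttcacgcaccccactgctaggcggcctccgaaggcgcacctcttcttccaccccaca

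Psmb9 shares its upstream stretch with Tap1, the peptide transporter of MHC class I presentation, which starts on the other strand 225 bases away. The whole stretch between the 2 genes, chr17:34187331-34187555, is given on the strand of Psmb9. It held a CCAAT box at -8 to -4, in inverted form, a motif found in 37.4% of all promoters, and neither a GAS match nor the interferon-stimulated response element (ISRE), searched as GAAA, any 2 bases, GAAA.
Psmb9: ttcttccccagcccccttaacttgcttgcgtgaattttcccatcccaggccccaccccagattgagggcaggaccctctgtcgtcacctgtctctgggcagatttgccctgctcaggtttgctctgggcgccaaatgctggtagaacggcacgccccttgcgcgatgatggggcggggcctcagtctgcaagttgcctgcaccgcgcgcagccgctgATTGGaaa

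The constitutive partners Psmb5 and Psmb6 each held a match to the antioxidant response element (ARE) TGACNNNGC, the site of the factors Nfe2l1 and Nfe2l2, which occurred in 12.4% of all promoters, in 6 of the 31 standard members and in 0 of the 5 immunoproteasome members. It lay at -47 to -39 in Psmb5 (chr14:54617996-54618245, minus strand) and at -9 to -1 in Psmb6 (30 bases at chr11:70525338-70525367, plus strand). Psme1 held an ISRE match within its transcribed part, at 10 to 19, in inverted form (30 bases at chr14:55578493-55578522, plus strand), a motif in 3.44% of all promoters and in 3 of the 31 standard members. Psmb10 and Psme2 held none of these 4 motifs in the same window, and Psmb7 was not in the table. A match is a description of letters and not of a bound site.
Psmb5: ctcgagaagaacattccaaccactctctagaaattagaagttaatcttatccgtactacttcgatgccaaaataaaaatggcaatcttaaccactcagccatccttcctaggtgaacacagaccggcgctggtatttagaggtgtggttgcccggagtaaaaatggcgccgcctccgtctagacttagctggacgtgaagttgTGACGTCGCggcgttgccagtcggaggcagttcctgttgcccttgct
Psmb6: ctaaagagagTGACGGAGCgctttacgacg
Psme1: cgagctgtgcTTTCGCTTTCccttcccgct

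In KO liver the interferon-inducible catalytic subunits were higher than in WT while the constitutive subunits they replace were lower, except Psmb6 after ENU with quantile normalization (0.19) and Psmb9 after ENU with the array median (-0.11); each catalytic pair moved apart. On vehicle the difference of Psmb8 exceeded that of Psmb5 by 1.31, a 2.49-fold unequal change; that of Psmb9 exceeded that of Psmb6 by 1.97 (3.93-fold) and that of Psmb10 exceeded that of Psmb7 by 1.53 (2.89-fold). After ENU the 3 values were 1.27, 0.52 and 1.49. These differences within a pair do not depend on any scaling that shifts a whole array, and all 3 stayed above 0 in both treatments with quantile normalization, where they were 1.18, 1.61 and 1.67 on vehicle and 1.28, 0.38 and 1.64 after ENU. They compare changes and say nothing about which of 2 probes is the more abundant transcript.

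**Figure D1:**
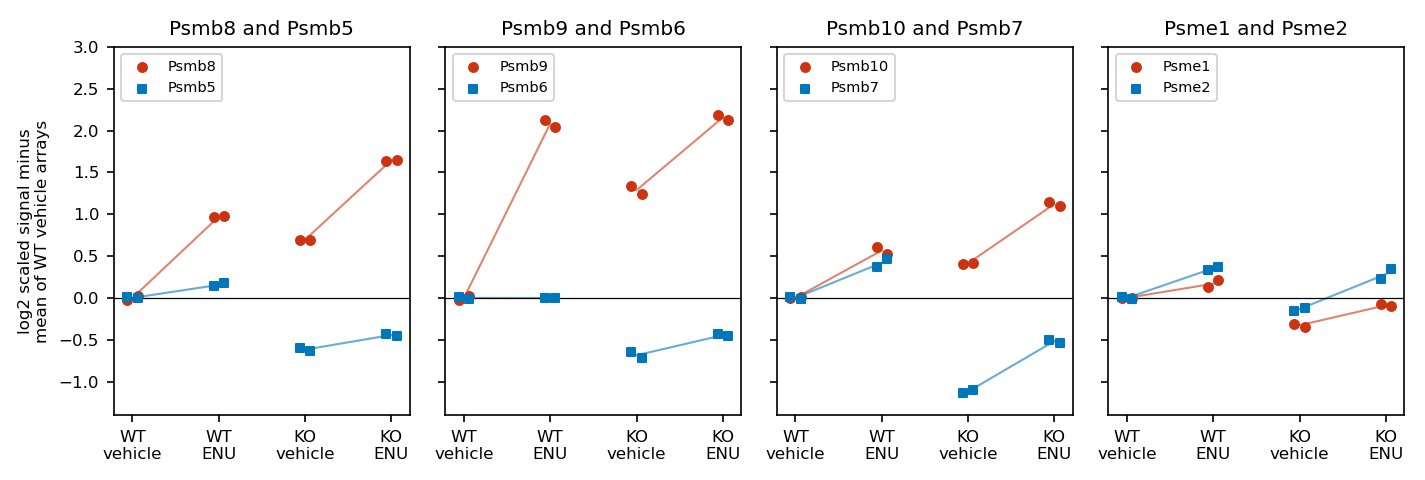
Log2 level of each catalytic pair and of the PA28 pair on each of the 8 arrays, minus the mean of the WT vehicle arrays of the same gene; points are arrays, lines join the group means within a genotype. Psmb8, Psmb9 and Psmb10 (red circles) lie above 0 in every other group, and Psmb5, Psmb6 and Psmb7 (blue squares) below 0 in both KO groups. With quantile normalization Psmb6 after ENU and both PA28 genes were higher in KO than in WT, the PA28 genes also without scaling.

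Psmb8 (β5i; probe at chromosome 17, 32280725 to 32281049, mm7, spanning an intron) had levels of 2.92 and 2.96 on the WT vehicle arrays, 3.91 and 3.92 in WT after ENU, 3.64 and 3.64 in KO on vehicle and 4.58 and 4.60 in KO after ENU. No arrays of different groups overlapped: WT vehicle was lowest and KO after ENU highest. Psmb8 was 0.70 higher in KO on vehicle and 0.68 higher after ENU, and its limma genotype effect of 0.69 ± 0.18 (SE) did not pass (adjusted p = 0.057; 0.0192 to 0.102 over the alternatives). It passed as risen with normexp, with quantile normalization and without scaling. Its second probe gave 0.66 and 0.84.

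Psmb9 (β1i; probe at chromosome 17, 32262147 to 32262206, mm7) had levels of 1.75 and 1.79 in WT vehicle, 3.89 and 3.81 in WT after ENU, 3.11 and 3.01 in KO on vehicle and 3.96 and 3.89 in KO after ENU. WT vehicle stood apart below the rest, while the arrays of the 2 ENU groups lay close together without overlap. The genotype difference was 1.29 on vehicle, 2.44-fold, and 0.073 after ENU. The latter turned to -0.11 with the array median as scale and was 0.57 with quantile normalization. The limma genotype effect was 0.68 ± 0.36 (adjusted p = 0.207; 0.0807 to 0.310 over the alternatives), and the ENU difference in KO was 1.22 smaller than in WT, a gap that could not be tested since no group was repeated. On vehicle Psmb9 was the only immunoproteasome member past 2-fold upward in KO, against 17.3% of all genes.

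Psmb10 (β2i; probe at chromosome 8, 104534632 to 104534691, mm7) had levels of 4.41 and 4.42 in WT vehicle, 5.03 and 4.94 in WT after ENU, 4.82 and 4.84 in KO on vehicle and 5.56 and 5.52 in KO after ENU. The order of the groups was the same as for Psmb9, and the groups did not overlap. With quantile normalization KO on vehicle instead stood above WT after ENU (0.93 against 0.65 over WT vehicle). The same held without scaling (0.98 against 0.79). It was 0.41 and 0.56 higher in KO, with a genotype effect of 0.48 ± 0.18 (adjusted p = 0.116; 0.0297 to 0.280 over the alternatives). It passed as risen with normexp, with quantile normalization and without scaling.

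The constitutive partners lay lower in KO. Psmb5 (β5) had levels of 4.67 and 4.65 in WT vehicle, 4.80 and 4.84 in WT after ENU, 4.06 and 4.03 in KO on vehicle and 4.23 and 4.21 in KO after ENU. Psmb6 (β1) had 5.38 and 5.35, 5.37 and 5.36, 4.71 and 4.65, and 4.93 and 4.91 in the same order. For both, all 4 KO arrays lay below all 4 WT arrays. The genotype differences on vehicle and after ENU were -0.62 and -0.60 for Psmb5 and -0.69 and -0.44 for Psmb6, and neither passed limma (adjusted p = 0.0721 and 0.0921). They shrank to -0.13 and -0.036 for Psmb5, and to -0.09 on vehicle, turning to 0.19 after ENU, for Psmb6, with quantile normalization.

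Psmb7 (β2) differed most of the standard members. Its levels were 4.0 and 3.98 in WT vehicle, 4.36 and 4.46 in WT after ENU, 2.86 and 2.89 in KO on vehicle and 3.49 and 3.45 in KO after ENU, again without overlap between genotypes. On vehicle its KO level was 2.17-fold lower, the only standard member past 2-fold there, against 11.1% of all genes, and after ENU 1.91-fold lower. It fell by 1.03 ± 0.19 in limma (adjusted p = 0.0278; 0.0152 to 0.117 over the alternatives), lower in both treatments, but did not pass with quantile normalization or without scaling.

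PA28α and PA28β, also interferon-inducible, stood between the catalytic immunosubunits and the median standard member in their genotype differences on this scale. Psme1 lay within the range of the standard members, with Psmf1 (-0.26) and Psmd10 (0.011) above it on vehicle. Psme1 had levels of 5.58 and 5.58 in WT vehicle, 5.71 and 5.79 in WT after ENU, 5.27 and 5.23 in KO on vehicle and 5.50 and 5.48 in KO after ENU. Psme2 had 5.45 and 5.42, 5.77 and 5.81, 5.28 and 5.32, and 5.66 and 5.77 in the same order, so its ENU groups overlapped at 5.77. They were lower in KO on vehicle by 0.33 and 0.13 and after ENU by 0.26 and 0.070, but higher in KO with quantile normalization (0.32 and 0.50 on vehicle, 0.40 and 0.59 after ENU) and without scaling. Against the median standard member they stood 0.32 and 0.51 higher on vehicle and 0.26 and 0.45 higher after ENU. For ENU minus vehicle they differed from that median by 0.082 and 0.27 in WT and by -0.0089 and 0.17 in KO. The Psme2 probes are named after a pseudogene in the files and lie beside Psme1 on chromosome 14 (mm7); a close copy elsewhere could share their signal, so the Psme2 values are uncertain.

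The standard members as a group were lower in KO than in WT, by a size that depended on the scaling. On vehicle 36 of 37 were lower, against 56.7% of all genes, with a median difference of -0.65 (1.57-fold) against -0.14 for all genes; after ENU 37 of 37 were lower, against 54.7% of all genes, with a median of -0.52 against -0.10. Both KO arrays lay below both WT arrays in both treatments for 36 of the 37 members and for 42.2% of all genes. Among the 56 standard probes that passed the filter, 55 were lower on vehicle and 55 after ENU. With quantile normalization 32 of 37 were lower on vehicle and 23 after ENU, with medians of -0.18 and -0.077, and without scaling 24 and 27, with medians of -0.082 and -0.12. Relative to the median of all genes, the standard median was -0.50 and -0.42 under the 75th percentile. The array median and no scaling must give the same relative values, since they only shift each array as a whole. The relative median was -0.36 and -0.30 with normexp and -0.30 and -0.19 without the filter on dim probes. With quantile normalization it was -0.10 and -0.030. The median of all genes moved to -0.37 and -0.28 with the array median and to 0.42 and 0.29 without scaling.

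**Figure D2:**
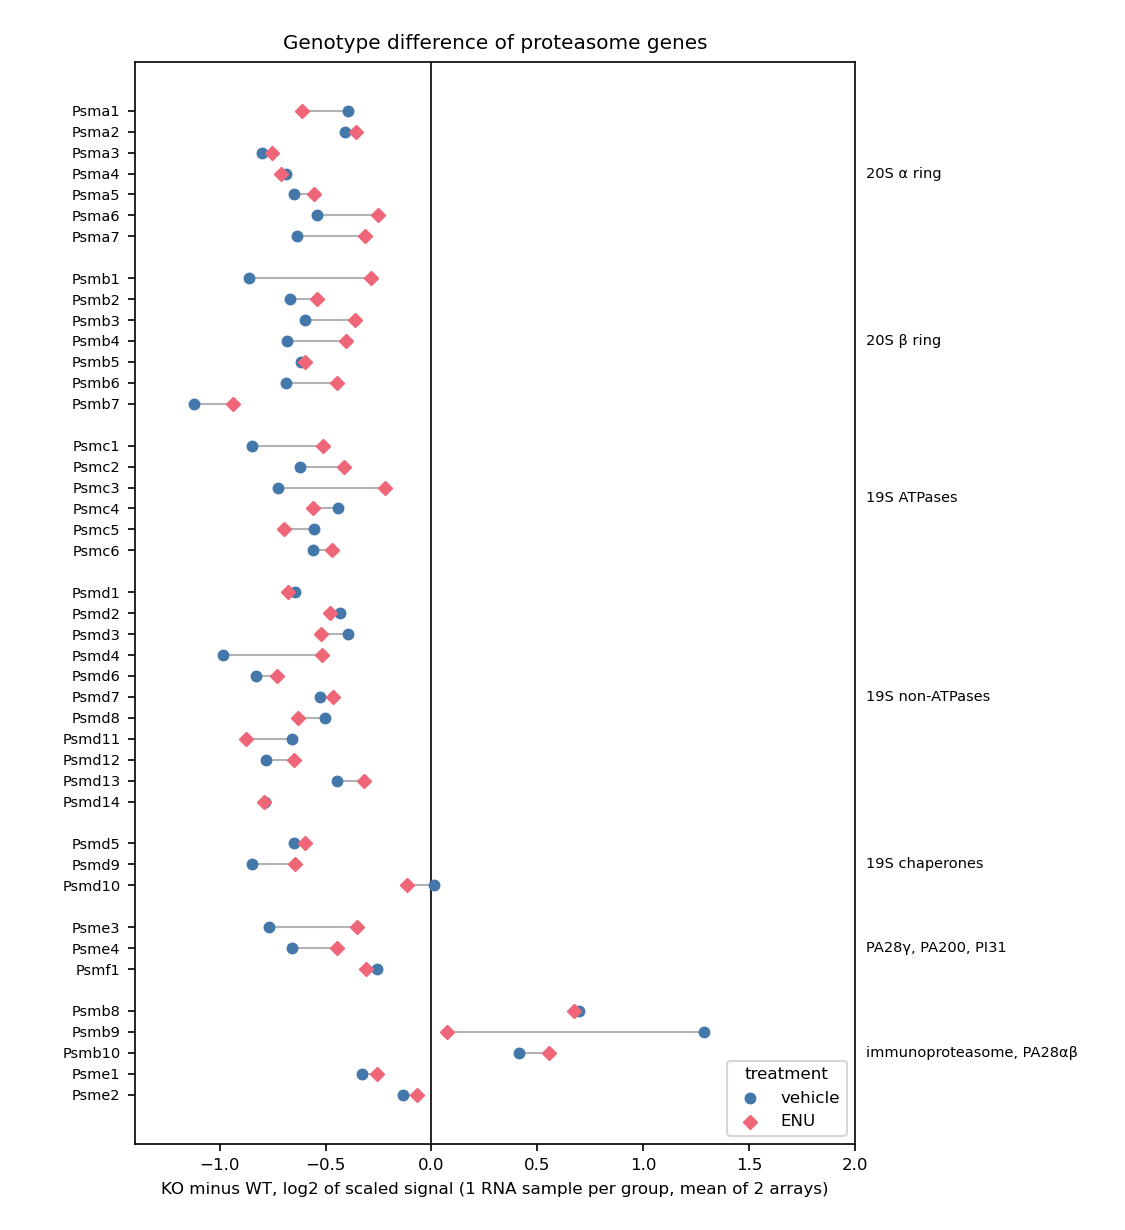
KO minus WT difference in log2 level for 42 members by role, on vehicle (blue circles) and after ENU (red diamonds), each the difference of 1 RNA sample from 1, joined by a grey line. Apart from Psmd10 on vehicle (0.011), every standard member lies below 0, and Psmb8, Psmb9 and Psmb10 lie above it; with quantile normalization 32 of 37 standard members on vehicle and 23 after ENU were lower.

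**Figure D3:**
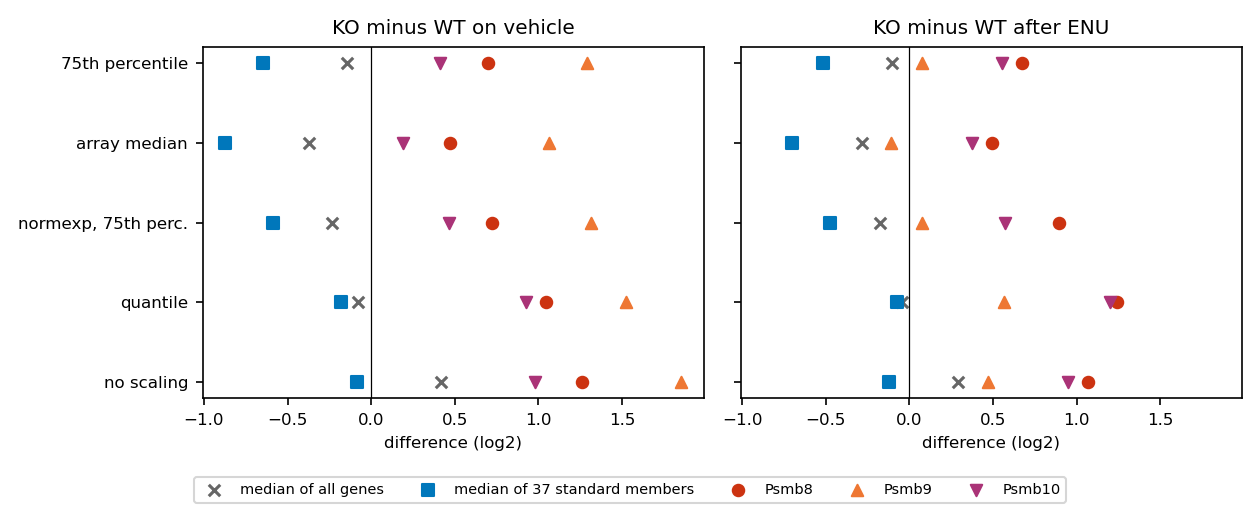
KO minus WT difference (log2) under 5 ways of scaling the arrays, on vehicle and after ENU: the median of all genes, the median of the 37 standard members, and Psmb8, Psmb9 and Psmb10. The 3 catalytic immunosubunits lie right of the standard median under each setting, while the standard median moves from -0.87 with the array median to -0.082 without scaling on vehicle, and Psmb9 after ENU turns to -0.11 with the array median.

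Of the 37 standard members 5 fell in limma (13.5%, against 15.3% of all genes) and 0 rose (16.9% of all genes), while 21 were lower at an unadjusted p under 0.05, as were 26% of all genes. The count of fallen members was near the background on this scale. Beside Psmb7 they were Psma3, Psmd6, Psmd11 and Psmd14, and these 5 stayed lower in KO in both treatments with quantile normalization and without scaling. The count of fallen members was 18 with normexp, where 23% of all genes fell, and 25 with the array median, where 27% did, both above that share. It was 0 with quantile normalization, where 10.6% of all genes fell, and without scaling, where 4.77% did.

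Psma3, an α-ring subunit, had levels of 3.33 and 3.32 in WT vehicle, 3.99 and 3.96 in WT after ENU, 2.53 and 2.53 in KO on vehicle and 3.21 and 3.23 in KO after ENU; it fell by 0.78 ± 0.18 (adjusted p = 0.0449). The arrays of the 2 genotypes did not overlap, although KO after ENU came close to WT vehicle. The 7 α-ring members differed by -0.80 (Psma3) to -0.39 (Psma1) on vehicle and by -0.75 (Psma3) to -0.25 (Psma6) after ENU. Psma2 had the smallest average difference, at -0.41 and -0.36, which turned to 0.22 and 0.29 with quantile normalization, from levels of 5.43 in WT vehicle, 5.67 in WT after ENU, 5.03 in KO on vehicle and 5.32 in KO after ENU.

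Among the 7 constitutive β-ring members the difference ran from -1.12 (Psmb7) to -0.60 (Psmb3) on vehicle and from -0.94 (Psmb7) to -0.28 (Psmb1) after ENU. Psmb3, a structural β subunit, had the smallest average difference, which turned to 0.091 and 0.31 with quantile normalization, with levels of 5.87, 5.96, 5.28 and 5.60 in WT vehicle, WT after ENU, KO on vehicle and KO after ENU. Psmb1, the structural β6 subunit, differed by -0.86 on vehicle and -0.28 after ENU, the widest spread between treatments in this ring.

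The 6 ATPases of the 19S base, Psmc1 to Psmc6, which unfold substrates, differed by -0.85 (Psmc1) to -0.44 (Psmc4) on vehicle and by -0.69 (Psmc5) to -0.22 (Psmc3) after ENU. None passed limma (adjusted p = 0.0702 to 0.172), with 3 lower at an unadjusted p under 0.05. Psmc1 had the largest average difference, with levels of 4.45, 4.48, 3.61 and 3.97 in the same order of groups. Psmc3 had the smallest, with 2.36, 2.75, 1.63 and 2.53; after ENU it was higher in KO with quantile normalization, by 0.017, and without scaling, by 0.18.

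Of the 11 non-ATPase subunits of the 19S cap 3 fell, against 15.3% of all genes. Psmd14, the deubiquitinase that removes ubiquitin chains at the proteasome, had levels of 2.88 and 2.86 in WT vehicle, 3.44 and 3.42 in WT after ENU, 2.10 and 2.07 in KO on vehicle and 2.64 and 2.64 in KO after ENU, and fell by 0.79 ± 0.18 (adjusted p = 0.0437). Psmd6, a lid subunit, had 4.0 and 3.96, 3.97 and 3.89, 3.14 and 3.16, and 3.19 and 3.22, and fell by 0.78 ± 0.18 (adjusted p = 0.0452). In both genes the genotypes did not overlap.

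Psmd11, a lid subunit known to be needed for proteasome assembly in stem cells, had 5.24 and 5.23 in WT vehicle, 5.26 and 5.28 in WT after ENU, 4.56 and 4.60 in KO on vehicle and 4.44 and 4.36 in KO after ENU, and fell by 0.77 ± 0.19 (adjusted p = 0.0499). It did not pass when any one of the 8 arrays was left out, and Psmd6 did not pass without WT ENU array a, where Psmd9 passed in its place. The smallest average difference among these subunits was that of Psmd13, at -0.44 and -0.32 (0.12 and 0.075 without scaling), with levels of -0.09, 0.52, -0.53 and 0.20 in WT vehicle, WT after ENU, KO on vehicle and KO after ENU. Psmd4, an ubiquitin receptor, was 0.99 lower on vehicle and 0.52 lower after ENU.

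The assembly chaperones of the 19S base were mixed. Psmd9 differed by -0.85 and -0.64 and Psmd5 by -0.65 and -0.60. Psmd10, the chaperone also known as gankyrin, had levels of -0.41 and -0.43 in WT vehicle, 0.12 and -0.04 in WT after ENU, -0.43 and -0.40 in KO on vehicle and -0.03 and -0.12 in KO after ENU. Its genotypes overlapped in both treatments, and it is the standard member not counted among the 36 above. Its genotype effect was -0.052 ± 0.18 (adjusted p = 0.838).

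Among the remaining activators and the inhibitor, Psme3 (PA28γ, the nuclear activator) differed by -0.77 and -0.35 and Psme4 (PA200) by -0.66 and -0.45. Psmf1 (PI31) differed by -0.26 and -0.31 by its brightest probe, which turned to 0.31 and 0.084 without scaling. Another Psmf1 probe gave -0.69 and -0.84 and a dimmer one -0.42 and -0.32, so its size depended on the probe. Psme3 had levels of 1.35, 0.71, 0.59 and 0.35 and Psmf1 of 0.20, 0.35, -0.06 and 0.03 in WT vehicle, WT after ENU, KO on vehicle and KO after ENU. None of the 3 passed limma (adjusted p = 0.0941 to 0.281). PA28γ, which interferon does not induce, thus differed by more on vehicle than PA28α and PA28β did.

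Psma8 and Psmc3ip behaved apart from the subunits. Psma8 had levels of -0.17 and -0.18 in WT vehicle, -0.95 and -0.96 in WT after ENU, -0.43 and -0.44 in KO on vehicle and -1.12 and -1.21 in KO after ENU, and so was 0.78 lower after ENU in WT and 0.73 lower in KO, with an unadjusted limma p for ENU of 0.0146. Psmc3ip had -4.31 and -4.45, -3.08 and -3.01, -2.31 and -2.34, and -1.56 and -1.55, with WT vehicle not well above background. In KO it was higher by at least 3.51-fold on vehicle and by 2.81-fold after ENU, and rose by 1.77 ± 0.23 (adjusted p = 0.0168; 0.00648 to 0.0269 over the alternatives), higher in both treatments. It passed under each of the alternatives, with a rise of only 0.72 under normexp.

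After ENU the immunosubunits were higher in both genotypes, and the standard members on balance slightly so. In limma 0 of 18137 genes passed for ENU in either direction (0% of all genes), while 10.6% were higher and 11.4% lower at an unadjusted p under 0.05; by that measure 3 of the 5 immunoproteasome members (Psmb8, Psmb9 and Psmb10) and 4 of the 37 standard members (Psma3, Psmc3, Psmd13 and Psmd14) were higher and 0 were lower. The unadjusted p was 0.00638 for Psmb8, 0.0151 for Psmb9 and 0.0265 for Psmb10, with adjusted p of 0.159 to 0.191. The ENU difference was 0.97 in WT and 0.95 in KO for Psmb8, 2.08 and 0.87 for Psmb9, and 0.57 and 0.71 for Psmb10.

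Psmb9 was the only member at least 2-fold higher after ENU in WT among subunits and activators, 4.24-fold, where 7.18% of all genes were, and none was in KO, where 4.33% of all genes were. Psmc3ip was at least 2.13-fold higher in WT. Relative to their constitutive partners Psmb8 gained 0.82 in WT and 0.78 in KO, Psmb9 2.09 and 0.63, and Psmb10 0.15 and 0.11. Psmb7 was also higher after ENU, by 0.42 in WT and 0.60 in KO. The gain of Psmb10 over Psmb7 was 0.38 in WT and 0.33 in KO with normexp, and in WT 0.051 without ENU array a and 0.24 without ENU array b.

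The standard members had a median ENU difference of 0.088 in WT, with 27 of 37 higher against 47% of all genes, and of 0.25 in KO, with 31 of 37 higher against 45% of all genes. The medians of all genes were -0.040 and -0.056. In WT the median of all genes turned to 0.19 without scaling and to 0.0018 with quantile normalization. The standard median in WT depended on the processing, from 0.041 with the array median, where 14 of 37 were lower, to 0.31 without scaling. On this scale 7 of 7 members of the 20S α ring were higher in both genotypes. They ran from 0.019 (Psma5) to 0.65 (Psma3) in WT and from 0.11 (Psma5) to 0.70 (Psma3) in KO. The direction of Psma5 in WT was not settled: its ENU and vehicle arrays overlapped, and it ran from -0.0030 to 0.040 with each array left out. Psmd9 was lower by 0.61 in WT and 0.41 in KO, and Psme3 by 0.65 and 0.23. The widest increases in KO among the standard members were those of Psmc3 (0.90) and Psmb1 (0.86), against 0.39 and 0.28 in WT. Of 14 standard members with more than 1 probe past the filter, 6 had probes of opposite sign after ENU in at least 1 genotype (Psmc2, Psmc5, Psmd4, Psmd7, Psmd12 and Psme4), against 1 in the genotype differences (Psme4, after ENU). The 2 probes of Psmc5 went opposite ways, -0.084 and -0.22 by the brighter and 0.49 and 0.89 by the dimmer, and those of Psmc2 gave 0.12 and 0.33 by the brighter and -0.50 and -0.13 by the dimmer.

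**Figure D4:**
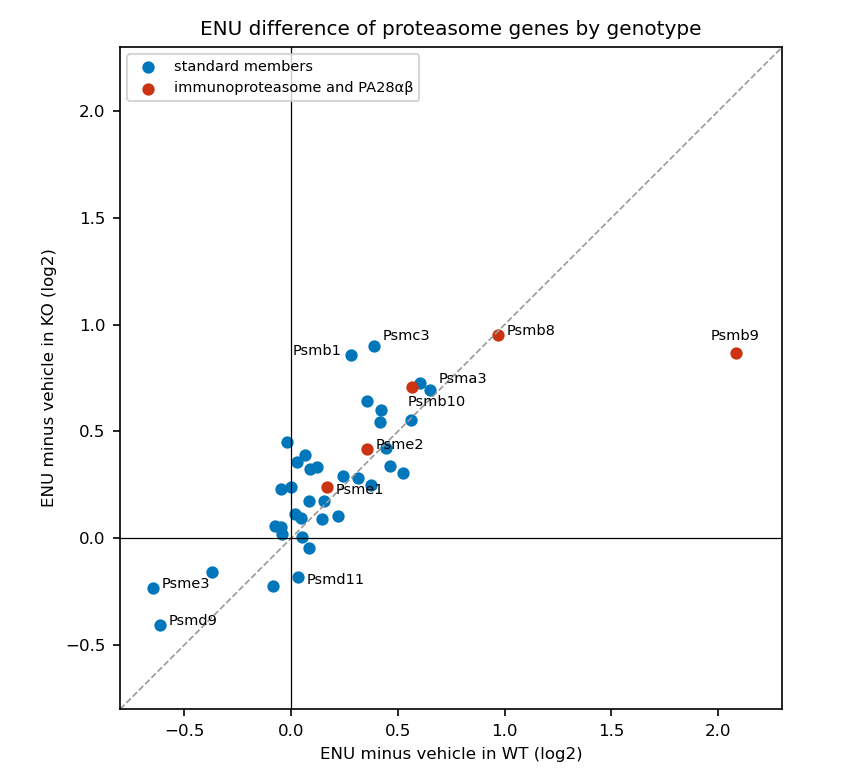
ENU minus vehicle difference (log2) in WT (x axis) and KO (y axis) for the 37 standard members (blue) and the 5 immunoproteasome members (red), each 1 RNA sample against 1; the dashed line marks equal differences. Psmb8 and Psmb10 lie near the line, Psmb9 far to its right, at 2.08 in WT and 0.87 in KO, and the standard members spread between -0.65 and 0.90.

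The partners and regulators of the proteasome were described by a list of genes outside the rule. Of 27 measured genes, 8 fell and 0 rose in KO, against 15.3% and 16.9% of all genes, with a median difference of -0.50 on vehicle and -0.41 after ENU (-0.20 and -0.073 with quantile normalization, where 2 fell and 1 rose; 0.061 and -0.017 without scaling, where 2 rose). With the array median 14 fell. Ddi2, the protease that activates the proteasome gene regulator Nfe2l1, differed downward by 2.01-fold on vehicle and 2.48-fold after ENU in KO, and fell by 1.16 ± 0.20 (adjusted p = 0.025). The others, among them 4 named here after their values were seen, included Ngly1, which deglycosylates Nfe2l1 and fell by 1.04, Pomp, the 20S maturation protein, by 1.03, Adrm1, an ubiquitin receptor of the 19S cap, by 0.91, and the segregase Vcp by 0.74. Nfe2l1 itself differed by -0.35 on vehicle and 0.26 after ENU. Of the 3 measured 20S assembly chaperones, Psmg1, Psmg2 and Psmg3, 1 fell (Psmg3). Their medians were -0.62 and -0.84 (-0.45 and -0.66 with quantile normalization, where 0 fell).

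Of 17 measured genes of MHC class I processing 1 rose and 2 fell, with medians of -0.24 and 0.027, or 0.32 and 0.46 with quantile normalization. These medians were 0.32 and 0.42 without scaling and -0.47 and -0.15 with the array median, so their direction depended on the scaling. The gene that rose was Tap1, which shares the upstream stretch of Psmb9; in KO it was 2.22-fold higher without ENU and 2.62-fold with it, and rose by 1.27 ± 0.19 (adjusted p = 0.0207). Tap1 was also 2.43-fold higher after ENU in WT and 2.86-fold in KO. Psmb9 and Tap1 thus differed alike on vehicle and not after ENU, where Psmb9 differed by 0.073 between the genotypes. Of 36 measured interferon response genes 14 rose and 2 fell, against 16.9% and 15.3% of all genes, with medians of 0.86 and 0.50 in KO and of 0.63 and 0.34 after ENU in WT and KO. Without scaling 21 rose and 0 fell, with medians of 1.42 and 0.89 in KO, where 27.6% of all genes rose. Cxcl10, a T-cell attracting chemokine, was 10.4-fold and 5.90-fold higher in KO, and Ifit2, Oasl2 and Oas1a were 2.63-fold to 6.01-fold higher.

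Markers of immune cells were measured beside the immunosubunits; the shares of all genes that rose and fell were 16.9% and 15.3%. Of 8 pan-leukocyte markers 7 rose in KO and 0 fell; their summed level, in multiples of the array's 75th percentile, ranged from 16.2 to 16.4 for WT vehicle, from 26.7 to 26.8 for WT after ENU, from 41.4 to 41.9 for KO on vehicle and from 59.1 to 59.9 for KO after ENU, none below background. The T and NK markers (5 of 10 rose, 2 fell) summed to 1.60 to 1.69, 3.01 to 3.13, 3.66 to 3.75 and 6.18, with Cd8a not above background in WT vehicle. The sums of these lists stood higher in KO on vehicle than in WT after ENU. On the same scale Psmb8, Psmb9 and Psmb10 stood lower, but for Psmb8 and Psmb10 this turned with the scaling. Over WT vehicle they stood at 1.05 and 0.93 in KO on vehicle with quantile normalization, against 0.95 and 0.65 in WT after ENU. Without scaling the values were 1.26 and 0.98 against 1.20 and 0.79. With normexp Psmb8 turned too (0.72 against 0.68), while Psmb9 stayed lower throughout. After ENU the pan-leukocyte median differed by 1.38 between the genotypes, and Psmb9 by 0.073. Macrophage markers (5 of 8 rose) summed to 75 to 76.1, 121 to 124, 175 and 322 to 325. Of dendritic cell and antigen presentation markers 4 of 6 rose, of neutrophil markers 7 of 7, and of B and plasma cell markers 2 of 7. The neutrophil median for ENU in WT was -0.26, opposite to that of the immunosubunits. The neutrophil sum in WT was higher after ENU, at 6.82 to 6.94 against 4.42 to 4.43 on vehicle. In WT, Elane and Ngp on vehicle and Camp and Elane after ENU were not above background. Without scaling 8 T and NK markers and 5 B and plasma cell markers rose, and 0 fell. With normexp the T and NK median for KO minus WT on vehicle shrank from 0.82 to 0.036. The neutrophil median there shrank from 3.05 to 1.77.

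Hepatocyte markers fell in 4 of 9 cases, with medians of -0.85 and -0.58, against -0.65 and -0.52 for the standard members, and of -0.26 and -0.10 with quantile normalization, where 1 fell; each of the 9 was well above background in every group. Of the other cell types, cholangiocyte markers rose in 7 of 7 cases, stellate cell markers in 3 of 7 (5 without scaling), and of 7 endothelial markers 1 fell, with medians of -0.52 and -0.65, and of 0.048 and -0.26 without scaling; of 12 cell cycle genes 11 rose. In bulk liver, fewer cells of a type and less RNA per cell cannot be told apart. The part of these markers in the differences of the proteasome genes was not tested.

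**Figure D5:**
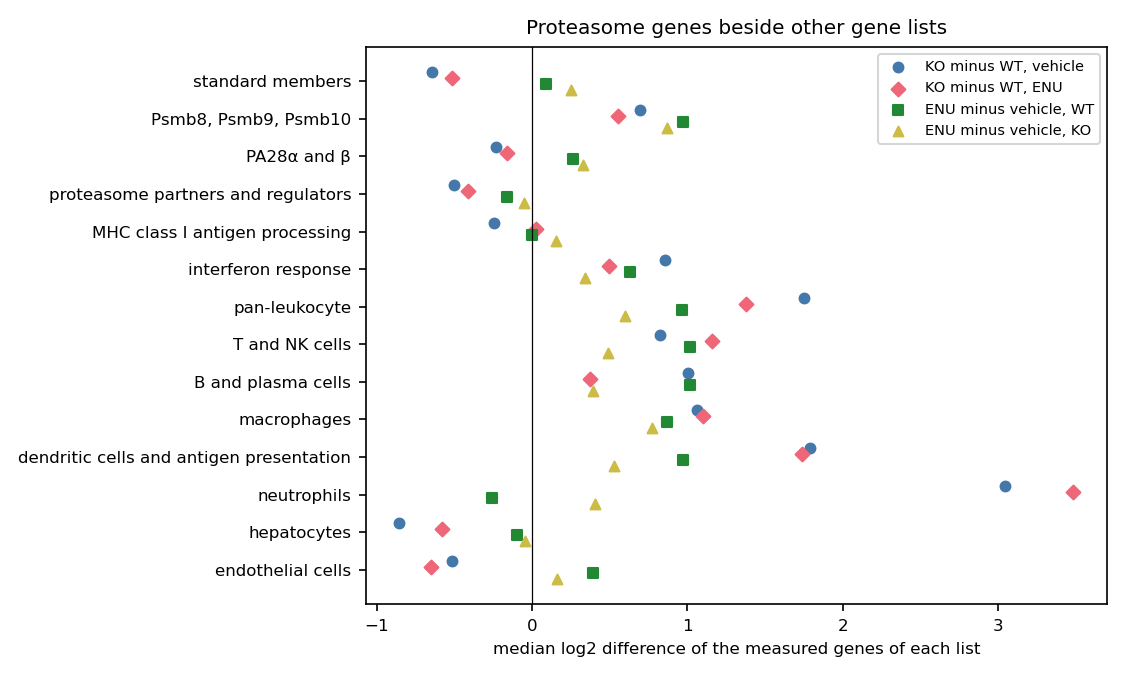
Median log2 difference of the measured genes of each set in the 4 comparisons, with 1 RNA sample a group. The 3 catalytic immunosubunits lie to the right in all 4 comparisons. So do the interferon, pan-leukocyte, T and NK, B and plasma cell, macrophage and dendritic cell lists. The standard members lie to the left in both genotype comparisons, as do the partner, hepatocyte and endothelial lists. Without scaling the endothelial and partner medians on vehicle turn to 0.048 and 0.061. With normexp the T and NK median for KO minus WT on vehicle is 0.036. With quantile normalization the standard medians are -0.18 and -0.077.

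The genes outside the rule whose 8 array levels, each centred on its own mean, lay closest to the mean profile of the 5 immunoproteasome members were Lrrc58, Sh3yl1, Septin9, Sae1, Spred2, Aaas, Spg21, Hnrnpr, H2az1 and Cyfip1. Their root mean square deviation from that profile was 0.0276 to 0.0697 over the 8 arrays, which come from 4 RNA samples. The mean profile itself ran from -0.57 in WT vehicle to 0.46 in KO after ENU, with KO on vehicle at -0.18 to -0.17 and WT after ENU at 0.27. Lrrc58, the nearest, was 0.44 and 0.19 higher in KO and 0.85 and 0.61 higher after ENU.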

How the data were processed

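Liver RNA of 4 groups was measured on 8 one-colour Agilent arrays. The deposited values are spot intensity, extracted per the file headers with version 10.7.1.1 of Agilent Feature Extraction (10.5.1 in the submitters' processing notes); probe coordinates are those of the files (mm7). The program had background-corrected the processed signal; the mean and background signals served an alternative. Of the 45018 spots on an array 43379 were no controls; 54.7% to 69.3% of these were well above background and none was saturated. The number of arrays limits the precision.

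The log2 of the processed signal was centred on the 75th percentile of its array. Spots marked as outliers were dropped, repeated spots averaged, probes kept if well above background on both arrays of 1 or more groups, and each gene was read from its brightest probe. Where a group was below background, a fold is a bound, taken on each array against the larger of the probe's signal and the dimmest signal that was well above background. Names were updated through RefSeq (GRCm38.p6). Over 156 to 181 probes spotted at least 5 times, arrays a and b of a group had a median absolute standardised difference of 0.595 to 0.732 (0.674 for noise alone), against 12.1 to 28.4 between groups, and counted as 1 sample.

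R 4.3.3 and limma 3.58.1 were used, and the scripts were tested on simulated data. Named in full were the immunoproteasome members, the constitutive catalytic subunits, members that passed limma or 2-fold, and the extremes of each subgroup by average genotype difference; of other lists, up to 4 genes past 2-fold in both genotype comparisons. The members and lists were chosen with earlier results of these data known. Alternatives were normexp (offset 50), quantile normalization, the array median, all probes averaged, no filter, each array left out and, chosen after seeing the data, no scaling.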

Additional observations from a re-analysis of the deposited data

Results flagged for a closer look

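In 4 standard members both ENU arrays lay on one side of both vehicle arrays in WT and on the other in KO. The difference between the genotypes was not tested, since no group was repeated. Arrays a and b counted as 1 RNA sample, so such a separation shows only a difference beyond spot noise. How many of all genes met the same rule was not counted. Psmb4, a structural β subunit, differed by -0.049 in WT and 0.23 in KO. Psmd4, an ubiquitin receptor, differed by -0.017 in WT and 0.45 in KO by its brightest probe, but its second probe gave -0.60 and -0.22, lower in both. Psmd3, a scaffold subunit of the 19S lid, differed by 0.083 in WT and -0.047 in KO. Psmd11, a lid subunit, differed by 0.034 in WT and -0.18 in KO. With quantile normalization the values of Psmb4 were 0.16 and 0.40, of Psmd4 0.071 and 0.53 and of Psmd3 0.23 and 0.12, no longer opposite, while Psmd11 kept 0.17 and -0.034.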

How the results depend on the processing

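Of the processing choices, the scaling between arrays moved the standard members most. The direction of each standard and immunoproteasome median held except where stated. In the order KO minus WT on vehicle, KO minus WT after ENU, ENU minus vehicle in WT and ENU minus vehicle in KO, the standard median was -0.59, -0.48, 0.17 and 0.26 with normexp, -0.18, -0.077, 0.23 and 0.37 with quantile normalization, -0.87, -0.70, 0.041 and 0.24 with the array median and -0.082, -0.12, 0.31 and 0.30 without scaling; averaging all probes gave 0.19 for ENU in WT. The immunoproteasome median was 0.47, 0.074, 0.65 and 0.76 with normexp, 0.93, 0.59, 0.65 and 0.93 with quantile normalization, 0.19, -0.11, 0.52 and 0.70 with the array median (turned after ENU) and 0.98, 0.47, 0.79 and 0.76 without scaling. With quantile normalization 23 standard members were lower in KO after ENU; lower after ENU in WT were 6 with normexp, 4 with quantile normalization and 3 without scaling. Of all members, 3 rose with normexp, with quantile normalization and without scaling; 18 fell with normexp, 25 with the array median, 1 without the filter on dim probes, which tests more genes, and 0 with quantile normalization or without scaling. Leaving out each array in turn gave 4 fallen members each time and a standard median for ENU in KO of 0.23 to 0.28. In the same order of comparisons, Psmb8 minus Psmb5 was 1.29, 1.47, 0.45 and 0.63 with normexp, 1.18, 1.28, 0.71 and 0.81 with quantile normalization, and 1.36 (KO minus WT after ENU) and 0.69 (ENU in WT) with all probes averaged. Psmb9 minus Psmb6 was 1.98 for ENU in WT and 0.53 in KO with normexp and 1.61, 0.38 and, for ENU in WT, 1.85 with quantile normalization. Psmb10 minus Psmb7 was 1.46 on vehicle and, for ENU, 0.38 in WT and 0.33 in KO with normexp, and 1.67, 1.64 and, for ENU in KO, 0.16 with quantile normalization. Except where a value above shows the cause, the cause was not tested. No paired analysis was possible because the 2 arrays of a group counted as 1 sample, so the letters a and b pair nothing. One RNA sample per group and 1 residual degree of freedom limit every statement, signals near background give bounds only, and slide, array position and the unstated day of the vehicle mice cannot be told apart from the groups they follow.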
